A study of Homo sapiens with 4 samples.

Results

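The hypoxia and glycolysis genes were a named list of 42 genes: the enzymes and transporters that carry glucose to lactate, and well-known targets of the hypoxia-inducible factors. Every symbol was looked up in the count tables, where ERO1L is listed under its current symbol ERO1A, and all 42 were found among the 26475 genes of each table. All 42 also passed the filter on low counts (at least 10 counts in at least 1 library), as did 15204 genes in all. By role, 24 members belong to glucose entry, glycolysis and lactate handling, and 18 to hypoxia response outside glycolysis.

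The study asked what changes in mammospheres, spheres of breast cancer cells grown without attachment, when TCOF1 (the nucleolar protein treacle) is knocked out. RNA was sequenced from MDA-MB-468, a triple-negative breast carcinoma line, in 4 conditions with 1 library each. CTL (genotype wild type, no treatment) and CTL+dox (wild type, doxycycline) carried the control for the guide, whereas gRNA2 (wild type, no treatment) and gRNA2+dox (knockout of TCOF1 induced with doxycycline) carried a TCOF1 guide. All cells were made with lentiviral Cas9 and a doxycycline-inducible guide vector and were sorted as pools, not as single clones. Each library pooled several plates of spheres, so there was no biological replicate, and the knockout is the outcome of editing in a mixed pool. No source used here gives the oxygen tension of the cultures, and no condition was a hypoxia treatment.

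Glycolysis splits glucose into pyruvate with a net gain of ATP, and lactate dehydrogenase turns pyruvate into lactate so that NAD+ is regained. When oxygen is short, prolyl hydroxylases no longer mark HIF1A and EPAS1 (HIF-2 alpha) for VHL-dependent degradation. The stabilised factor pairs with ARNT and switches on glucose uptake, glycolytic enzymes, lactate and proton export, angiogenic factors and its own feedback inhibitors. Many tumour cells run this programme even in air, and poorly perfused tumour regions and the core of large spheres run it more strongly.

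The libraries held between 19960644 and 26322847 reads on genes. TCOF1 itself had 1019 (CTL), 754 (CTL+dox), 1318 (gRNA2) and 437 (gRNA2+dox) reads. Its log2 ratio was −1.34 (95% interval −1.50 to −1.18) in gRNA2+dox against gRNA2, but also −0.58 (−0.71 to −0.44) in CTL+dox against CTL. In gRNA2+dox against CTL+dox the TCOF1 ratio was smaller, at −0.74 (−0.92 to −0.57), and in gRNA2 against CTL it was 0.02. The 7 epithelial and basal markers summed to between 14799 and 16496 scaled counts per 1000000 (CPM) in the 4 libraries, ERBB2 lay at 4.70 to 5.75 TPM (counts per exon length, summing to 1000000 per library), and ESR1 had 4 to 13 reads. The 7 blood cell markers summed to between 10.9 and 13.0 CPM, with HBB at 0 in every library, and the 6 fibroblast and endothelial markers to between 17.9 and 22.8 CPM. The part of these markers in the results was not tested. In bulk RNA, fewer cells of a type and less RNA per cell cannot be told apart.

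With 1 library per condition no test across replicates was possible. Each comparison is a log2 ratio of scaled counts with an exact 95% interval for the reads of its 2 libraries. The interval covers counting error only, so it compares libraries and not conditions, and PCR copies are not independent molecules. A gene was called when its log2 ratio was at least 0.5 in size and the interval left out 0. A stricter lower call needed a log2 ratio below −1 with its 99% posterior bound below −0.5. Levels of single genes are compared with each other only as TPM, whereas sums over gene lists are also given in CPM. The 4 comparisons share libraries, so they are not independent of each other.

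As a sum, the members were highly expressed, mostly through the glycolysis genes, and nearly flat across the 4 libraries. LDHB was the member that departed most among those with deep counts. The members summed to 13148 (CTL), 14027 (CTL+dox), 13991 (gRNA2) and 13812 (gRNA2+dox) CPM, which is between 1.35% and 1.41% of all reads on genes. Of this, the 24 members with glycolysis roles gave 11223 to 12120 CPM and the 18 with hypoxia roles 1908 to 2118 CPM. Per length, the same 2 sums were 9696 to 10183 TPM and 1287 to 1441 TPM. Per length, GAPDH (2600 to 3024 TPM) and ALDOA (1698 to 1846 TPM) stood highest, and SLC2A3 and ALDOC stayed below 1 TPM in every library. The plot of levels shows how closely the 4 libraries coincide for most genes.

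**Figure D1:**
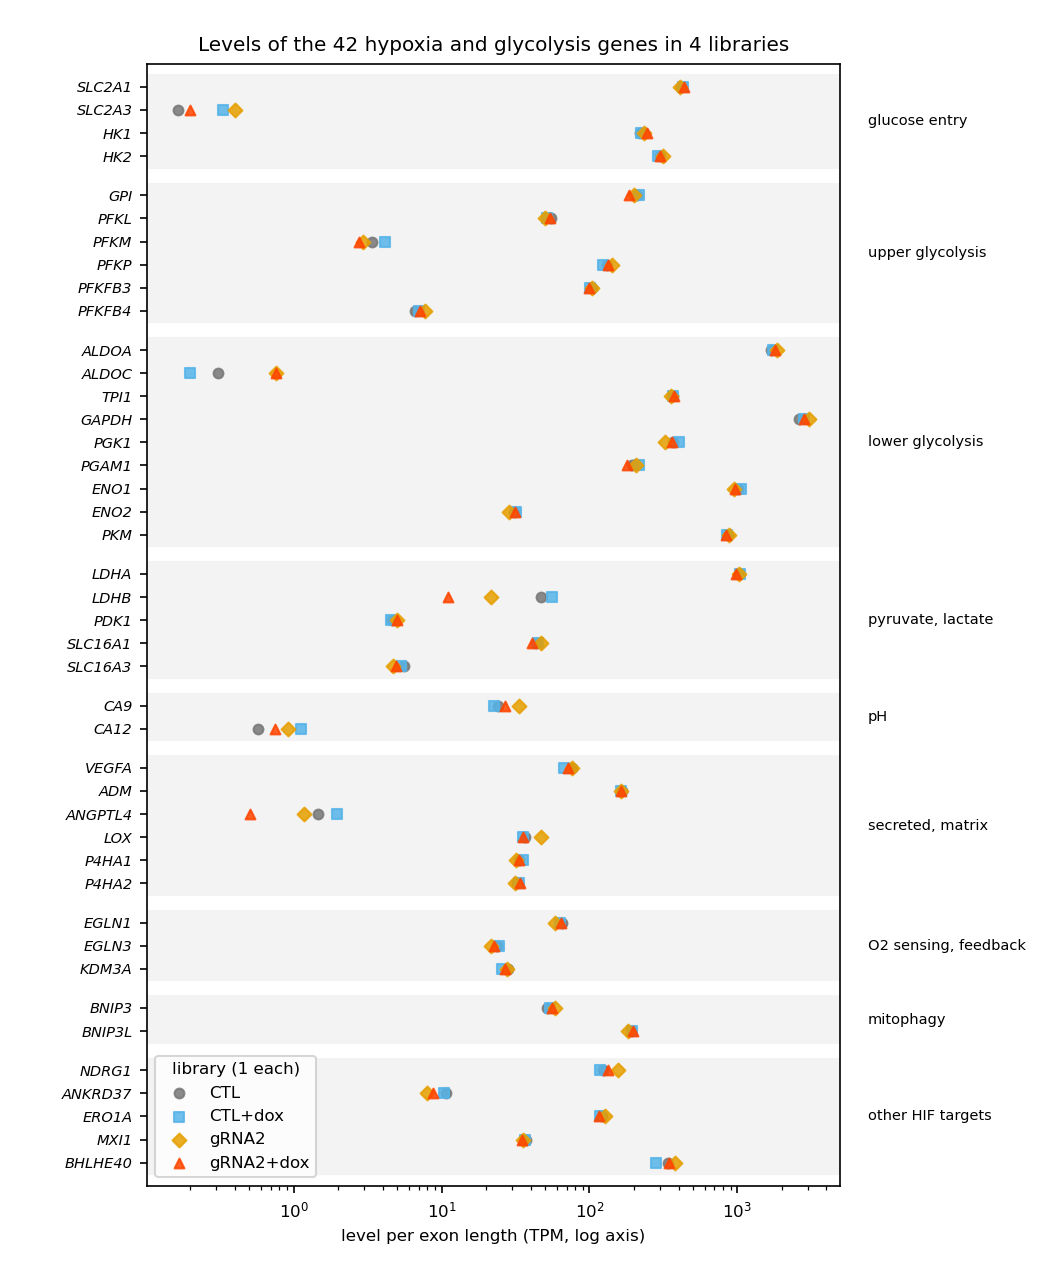
Level of each of the 42 members in TPM (horizontal log axis) in the 4 libraries, 1 point per library, grouped by role. The 4 points of most members lie on each other, whereas LDHB runs from 55.7 TPM in CTL+dox down to 11.1 in gRNA2+dox, and the scattered points of SLC2A3, ALDOC, CA12 and ANGPTL4 are low counts.

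In gRNA2+dox against gRNA2, the comparison within the TCOF1 guide pool, 1 of 42 members was called lower (LDHB), where 3.06% of all genes tested were called lower. No member was called higher, where 2.08% of all genes were, and no member passed the stricter lower call, which 0.296% of all genes passed. The members' median log2 ratio was −0.03, beside −0.02 over all genes tested. Above 0 lay 18 members and below it 24, beside 6968 and 8235 of all genes tested.

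In gRNA2+dox against CTL+dox, the comparison of guides under doxycycline, 3 of 42 members (7.14%) were called lower, namely PFKM, LDHB and ANGPTL4, against a background of 5.04%. The call higher took 0 members, where it took 3.38% of all genes. The stricter lower call took 2 members, LDHB and ANGPTL4, where it took 1.03% of all genes. The median was −0.01 beside 0.00 over all genes. Above 0 lay 19 members and below it 23, beside 7627 and 7577 of all genes tested.

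The control comparisons gave 1 and 2 calls. In CTL+dox against CTL, doxycycline without the TCOF1 guide, CA12 alone was called higher (background 1.74%) and no member lower (background 2.04%). The stricter lower call took no member (background 0.171%). However, 33 members lay above 0 and 9 below, beside 7947 and 7255 of all genes tested. The members' median was 0.09 beside 0.01 over all genes. In gRNA2 against CTL, the 2 pools before doxycycline, CA9 was called higher (background 1.98%) and LDHB lower (background 2.91%), and LDHB also passed the stricter lower call (background 0.414%). The median there was 0.04 beside 0.03 over all genes.

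The doxycycline ratio of the gRNA2 pool minus that of the CTL pool was called lower for 4 members, SLC2A3, LDHB, CA12 and ANGPTL4 (9.52%, background 3.88%), and higher for none (background 2.89%). Of these 4, LDHB had deep counts, while SLC2A3, CA12 and ANGPTL4 averaged between 11.8 and 34.0 reads per library. The median difference was −0.07 over the members and −0.02 over all genes tested. Below 0 lay 29 members and above it 13, beside 8218 and 6986 of all genes tested.

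The spread of the members was small. Of the 38 members that averaged at least 100 reads, 35 (92.1%) lay within 0.25 of 0 on the log2 scale in gRNA2+dox against gRNA2, where 86.0% of the 10910 genes of that depth did. In gRNA2+dox against CTL+dox the count was 33 (86.8%, against 74.8% of all genes of that depth), in CTL+dox against CTL it was 36 (94.7% against 85.8%), and in gRNA2 against CTL it was 31 (81.6% against 85.2%). The first 3 shares were above that of all genes and the last was below it.

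**Figure D2:**
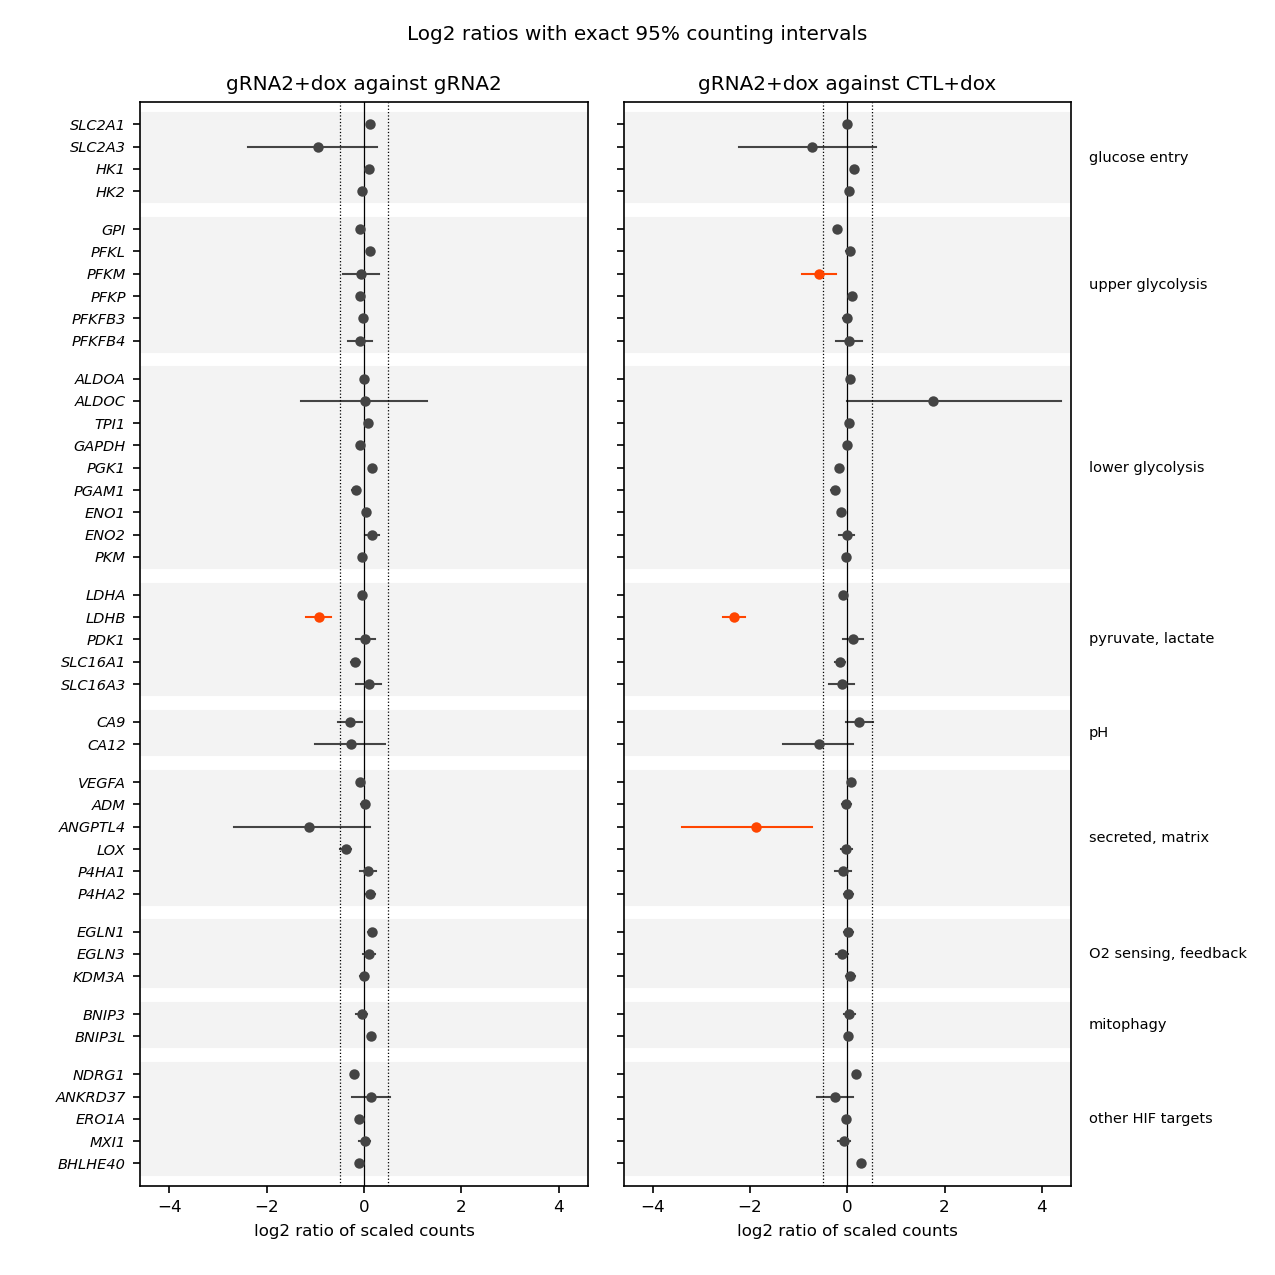
Log2 ratio of scaled counts (horizontal axis) of each member in gRNA2+dox against gRNA2 and in gRNA2+dox against CTL+dox, with exact 95% counting intervals and dotted lines at −0.5 and 0.5; called members are orange-red. LDHB is called in both panels, at −0.92 and −2.32, while the wide intervals of SLC2A3, ALDOC, CA12 and ANGPTL4 reflect fewer than 50 reads in every library.

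Lactate dehydrogenase is a tetramer of LDHA (M) and LDHB (H) subunits, in which M-rich forms are associated with lactate production and H-rich forms with lactate use. LDHA is a textbook target of HIF1A and LDHB is not. LDHA had 30610 (CTL), 35958 (CTL+dox), 40159 (gRNA2) and 32908 (gRNA2+dox) reads, at 981 to 1036 TPM. Its log2 ratios lay between −0.08 and 0.09 in all 4 comparisons, so it differed little between the libraries.

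LDHB had 699 (CTL), 957 (CTL+dox), 419 (gRNA2) and 185 (gRNA2+dox) reads, or 34.2, 42.5, 16.1 and 8.47 CPM. Both gRNA2 libraries lay below both CTL libraries, and the counting intervals of the 4 libraries did not overlap. Against gRNA2, LDHB fell in gRNA2+dox with a log2 ratio of −0.92 (−1.18 to −0.67), and against CTL+dox with one of −2.32 (−2.56 to −2.10). The gene was already lower before doxycycline, at −1.09 (−1.27 to −0.91) in gRNA2 against CTL, and its ratio was 0.31 (0.17 to 0.45) in CTL+dox against CTL. The doxycycline ratios of LDHB thus had opposite signs in the 2 pools, with a difference of −1.24 (−1.52 to −0.95), and the one in the CTL pool was below the size needed for a call. The first gap between the pools was present without the inducer, and what part of it came from the guide and what part from the derivation of the pools cannot be told apart.

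Measured as a ratio of TPM within each library, LDHA exceeded LDHB 21.7-fold (CTL), 18.6-fold (CTL+dox), 47.4-fold (gRNA2) and 88.1-fold (gRNA2+dox). LDHB made up 4.41%, 5.10%, 2.06% and 1.12% of the summed LDHA and LDHB level in the same order. LDHA transcripts were in the majority in every library, and the minority share was the part that differed. Among the 10910 genes that averaged at least 100 reads, 4 had a lower ratio than LDHB in gRNA2+dox against CTL+dox, 13 in gRNA2+dox against gRNA2 and 12 in gRNA2 against CTL, a ranking made after its values were seen.

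**Figure D3:**
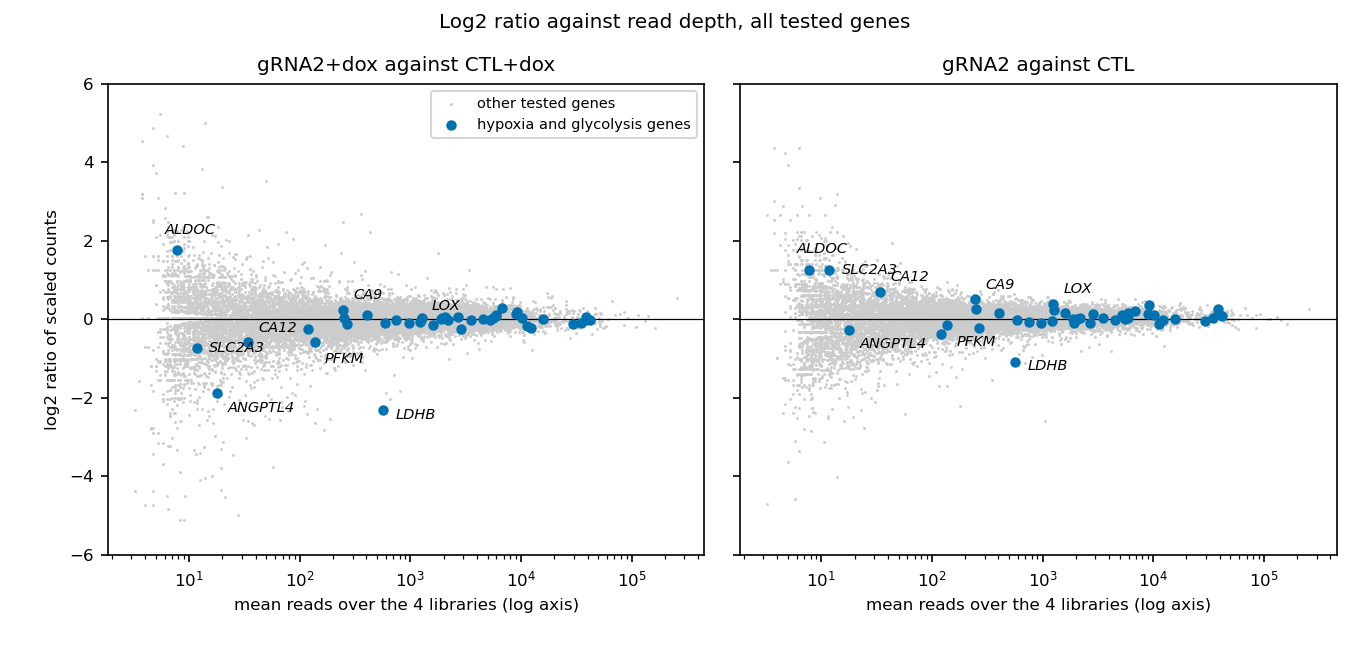
Log2 ratio of scaled counts (vertical axis) against mean reads over the 4 libraries (horizontal log axis) for all 15204 genes tested in gRNA2+dox against CTL+dox and in gRNA2 against CTL, with the members in blue. LDHB stands apart from genes of its depth in both panels, at −2.32 and −1.09, whereas the members with low counts sit inside the wide scatter at the left.

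The promoters of the 2 lactate dehydrogenase genes and of CA9, the member most often used as a hypoxia marker, are shown because the cores of the hypoxia response element differ between them. The sequences are the 250 bases before the RefSeq start on GRCh38.p14, read 5′ to 3′ on the strand of the gene, at chr11:18394313-18394562 (plus strand) for LDHA, chr12:21657843-21658092 (minus strand) for LDHB and chr9:35673678-35673927 (plus strand) for CA9. Capitals mark every match to ACGTG or GCGTG on either strand.
LDHA: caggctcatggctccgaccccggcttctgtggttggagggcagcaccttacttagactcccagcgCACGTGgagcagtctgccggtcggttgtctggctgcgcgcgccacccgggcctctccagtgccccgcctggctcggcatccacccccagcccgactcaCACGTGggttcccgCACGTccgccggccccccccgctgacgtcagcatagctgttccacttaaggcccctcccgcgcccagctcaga
LDHB: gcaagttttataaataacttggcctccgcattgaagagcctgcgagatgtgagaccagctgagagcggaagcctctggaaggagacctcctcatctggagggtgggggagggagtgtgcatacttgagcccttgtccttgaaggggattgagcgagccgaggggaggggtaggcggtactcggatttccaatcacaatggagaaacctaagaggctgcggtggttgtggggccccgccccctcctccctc
CA9: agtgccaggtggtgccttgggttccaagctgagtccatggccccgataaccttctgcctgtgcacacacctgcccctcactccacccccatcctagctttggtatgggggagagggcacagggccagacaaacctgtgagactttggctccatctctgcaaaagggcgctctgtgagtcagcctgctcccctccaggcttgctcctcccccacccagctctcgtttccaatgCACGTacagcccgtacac

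The LDHA stretch held 5 matches, of which CACGTG, a palindrome that also is an E-box, gives 1 on each strand. The CA9 stretch held 1, 18 bases before the start, and the LDHB stretch held 0. A window that also takes in the first 50 transcribed bases had 6 matches in LDHA and 1 each in LDHB and CA9. By that window of 300 bases, 27 of the 37 members with an entry (73%) held at least 1 match, beside 48.4% of all 27305 promoters and 61.3% of the 11133 promoters of tested genes. ACGTG alone was in 17 members (45.9%), in 21.6% of all promoters and in 25.8% of those of tested genes. A match is a run of letters and not a measured binding site, and SLC2A3, SLC16A1, VEGFA, BNIP3L and NDRG1 were without an entry.

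Glucose enters through facilitative transporters and is trapped by hexokinase. SLC2A1 (GLUT1), the main transporter of most tumour cells, had 13625 (CTL), 16431 (CTL+dox), 17559 (gRNA2) and 15932 (gRNA2+dox) reads, at 407 to 433 TPM, with log2 ratios of 0.11 against gRNA2 and 0.00 against CTL+dox. SLC2A3 (GLUT3), a high-affinity transporter, had only 6, 14, 19 and 8 reads in the same order. It was called in none of the 4 comparisons, with log2 ratios of −0.95 (−2.39 to 0.26) in gRNA2+dox against gRNA2 and 1.02 (−0.39 to 2.75) in CTL+dox against CTL, and the call on the difference, −1.98 (−3.75 to −0.21), rests on these few reads and was lost with a prior count of 5, at −1.40. SLC2A1 accounted for at least 99.9% of the summed TPM of the 2 transporters in every library.

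The hexokinases were both abundant. HK1, the constitutive form, had 7476, 8797, 10502 and 9425 reads in the order CTL, CTL+dox, gRNA2 and gRNA2+dox. HK2, the HIF-inducible form, had 8796, 9923, 12169 and 9902. Their log2 ratios in the knockout comparisons lay between −0.04 and 0.14. HK2 held 55.0% to 57.8% of the summed hexokinase TPM, which is the larger share in every library.

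In the upper steps, GPI (glucose-6-phosphate isomerase) had 11184, 13262, 13970 and 11034 reads, with log2 ratios of −0.09 in gRNA2+dox against gRNA2 and −0.22 against CTL+dox. The phosphofructokinases, which catalyse the committed step, were led by PFKP, the platelet form, with 68.9% to 73.0% of their summed TPM. PFKL, the liver form, held 25.5% to 29.2% and PFKM, the muscle form, 1.46% to 2.30%. The ranking of the 3 forms was the same in all libraries, and neither PFKP nor PFKL exceeded 0.17 in the size of any log2 ratio.

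PFKM had 121 (CTL), 172 (CTL+dox), 139 (gRNA2) and 112 (gRNA2+dox) reads. It was lower in gRNA2+dox against CTL+dox, at −0.57 (−0.93 to −0.22), but not against gRNA2, at −0.06 (−0.43 to 0.31). CTL+dox was its high library. For this gene the 2 strand-specific counts sum to 1.24 times the count used, and with that sum the ratio was −0.39 and not called. PFKFB3 and PFKFB4, which make and remove the activator fructose-2,6-bisphosphate and are both hypoxia-inducible, had log2 ratios of −0.08 to 0.04 in the knockout comparisons. PFKFB3 was at 93.0% to 94.0% of their summed TPM.

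**Figure D4:**
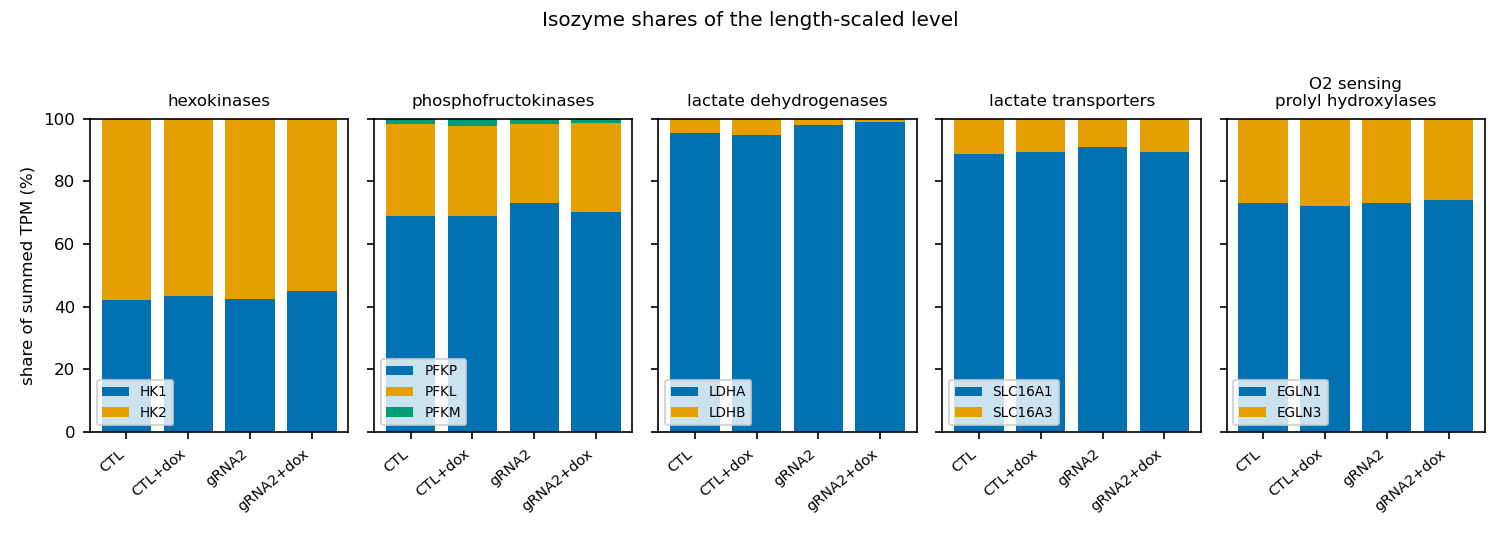
Share of the summed TPM (vertical axis, %) held by each isozyme in 5 families of members, 1 bar per library. Within each family the shares move by a few percentage points at most, for example from 68.9% to 73.0% for PFKP. Relative to its own size the LDHB share moves most, from 5.10% in CTL+dox to 1.12% in gRNA2+dox.

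The later steps of the pathway held the most abundant transcripts and no call in any of the 4 comparisons. ALDOA (aldolase A) had 32257, 38390, 46121 and 38468 reads in CTL, CTL+dox, gRNA2 and gRNA2+dox. GAPDH, which makes the NADH that lactate dehydrogenase uses up, had 30914, 38988, 47280 and 37533. PKM (pyruvate kinase), which yields pyruvate and ATP, had 36712, 41957, 49242 and 40032. The log2 ratios of these 3 genes in gRNA2+dox against gRNA2 were −0.01, −0.08 and −0.04, and against CTL+dox they were 0.05, −0.01 and −0.02.

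GAPDH, often used as a reference gene, showed 0.19 in CTL+dox against CTL and 0.26 in gRNA2 against CTL, so CTL was its lowest library. PGK1 (phosphoglycerate kinase) was at 0.17 in gRNA2+dox against gRNA2 and −0.17 against CTL+dox. TPI1 (triosephosphate isomerase) was at 0.09 and 0.03 in the same comparisons. These values have the size of the differences between the control libraries.

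PGAM1 (phosphoglycerate mutase) had 2426 (CTL), 3145 (CTL+dox), 3408 (gRNA2) and 2550 (gRNA2+dox) reads, with log2 ratios of −0.16 (gRNA2+dox to gRNA2), −0.26 (gRNA2+dox to CTL+dox) and 0.23 (CTL+dox to CTL). None was called. PGAM1 has processed copies, and PGAM1P5 in the same tables had 38 to 73 reads, so a small part of its reads could have been shared out. The enolases were led by ENO1, at 96.8% to 97.1% of the summed TPM of ENO1 and ENO2, and the log2 ratios of both lay between −0.13 and 0.16.

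ALDOC (aldolase C), a brain-enriched form that hypoxia also induces, had 4 (CTL), 3 (CTL+dox), 13 (gRNA2) and 11 (gRNA2+dox) reads. Both gRNA2 libraries were higher in reads than both CTL libraries, but ALDOC passed the filter on low counts only through the gRNA2 libraries. This order of the pools is therefore not independent of the filter. The log2 ratio was 1.76 against CTL+dox with an interval that reaches −0.00, and 0.01 against gRNA2, so no call was made at this depth, although DESeq2 size factors gave one at the same ratio of 1.76. ALDOA held at least 99.96% of the summed aldolase TPM.

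Pyruvate can also be kept from the mitochondria or leave the cell as lactate. PDK1 (pyruvate dehydrogenase kinase), a HIF target that shuts pyruvate dehydrogenase, had 339, 391, 481 and 412 reads in CTL, CTL+dox, gRNA2 and gRNA2+dox, with log2 ratios of 0.03 and 0.12 in the knockout comparisons. SLC16A1 (MCT1), which carries lactate in both directions, had 1369, 1646, 1941 and 1441, with −0.18 and −0.15. SLC16A3 (MCT4), the HIF-inducible exporter, had 256, 282, 281 and 252, with 0.10 and −0.12. None of the 3 was called in any comparison, and SLC16A1 held 88.6% to 91.0% of the summed TPM of both transporters.

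Cells that export acid use carbonic anhydrases on their surface, and CA9 and CA12 are the tumour-associated ones. CA9, a standard marker of hypoxia, had 192 (CTL), 208 (CTL+dox), 349 (gRNA2) and 239 (gRNA2+dox) reads, or 9.40, 9.23, 13.4 and 10.9 CPM. gRNA2 was the high library, and the call was between the 2 pools without doxycycline, at 0.51 (0.25 to 0.77) in gRNA2 against CTL. That call was lost with DESeq2 size factors, at 0.49, and with total counts, at 0.46. In gRNA2+dox the value lay between those of the other groups, with log2 ratios of −0.29 (−0.54 to −0.05) against gRNA2 and 0.24 (−0.03 to 0.52) against CTL+dox, neither of them called.

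CA12 had 20 (CTL), 45 (CTL+dox), 42 (gRNA2) and 29 (gRNA2+dox) reads. CTL was the low library, and CA12 was called higher in CTL+dox against CTL, the pool without the TCOF1 guide, at 1.01 (0.24 to 1.87). Its log2 ratios in the knockout comparisons were −0.28 against gRNA2 and −0.58 (−1.32 to 0.12) against CTL+dox, and the difference of the doxycycline ratios was −1.29 (−2.30 to −0.28). CA9 held 95.3% to 97.7% of the summed TPM of both enzymes.

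**Figure D5:**
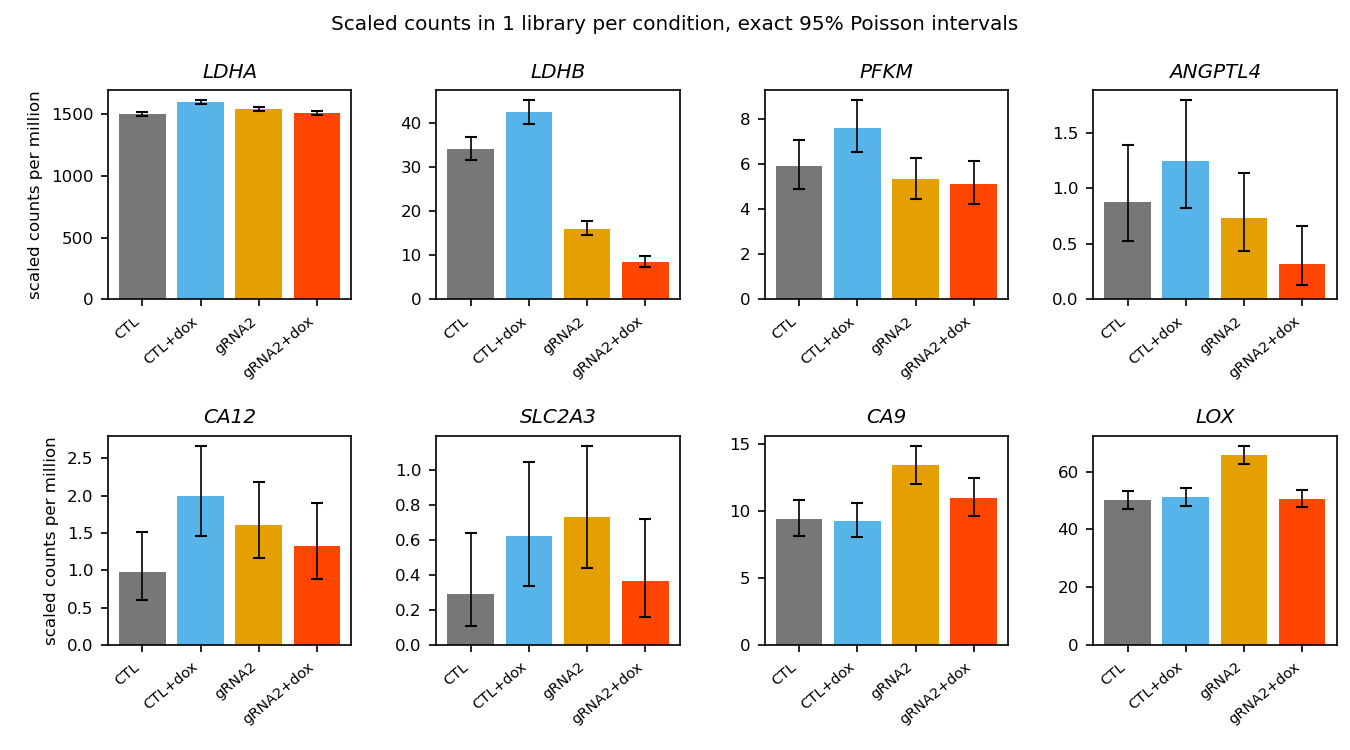
Scaled counts (vertical axes, CPM, each from 0) of 8 members in the 4 libraries, 1 bar per library with its exact 95% Poisson interval. LDHA is level, LDHB steps down from the CTL to the gRNA2 libraries and again in gRNA2+dox, CA9 and LOX are highest in gRNA2, and PFKM, ANGPTL4, CA12 and SLC2A3 have wide intervals.

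Among secreted factors, VEGFA, the main angiogenic target of HIF, had 5471 (CTL), 5591 (CTL+dox), 7174 (gRNA2) and 5715 (gRNA2+dox) reads, with log2 ratios of −0.07 and 0.08 in the 2 knockout comparisons. ADM (adrenomedullin), a vasodilator peptide induced by hypoxia, had 1916, 2196, 2480 and 2101, with 0.01 and −0.02, and its level kept within 162 to 166 TPM. Neither was called in any comparison.

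ANGPTL4, an inhibitor of lipoprotein lipase that HIF and PPAR factors induce, had 18 (CTL), 28 (CTL+dox), 19 (gRNA2) and 7 (gRNA2+dox) reads. The lowest library was gRNA2+dox. ANGPTL4 was called lower against CTL+dox, at −1.88 (−3.39 to −0.73), whereas against gRNA2 it was at −1.14 (−2.68 to 0.13) and the difference of the doxycycline ratios was −1.62 (−3.10 to −0.14), a call that was lost with a prior count of 5, at −1.23.

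LOX (lysyl oxidase), which cross-links collagen, had 1023, 1153, 1715 and 1105 reads in CTL, CTL+dox, gRNA2 and gRNA2+dox, or 50.1, 51.2, 65.8 and 50.6 CPM. The other 3 libraries were alike and gRNA2 stood above them, with log2 ratios of −0.38 (−0.49 to −0.27) in gRNA2+dox against gRNA2, 0.39 (0.28 to 0.51) in gRNA2 against CTL and −0.02 in gRNA2+dox against CTL+dox. These ratios are below the size needed for a call. P4HA1 and P4HA2, the collagen prolyl hydroxylases, each held near-equal TPM (P4HA1 at 49.8% to 51.7% of their sum), with log2 ratios of −0.10 to 0.13 in the knockout comparisons.

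The genes that sense oxygen or feed back on HIF were steady. EGLN1 (PHD2), the main HIF prolyl hydroxylase, had 1729, 1960, 2053 and 1932 reads and log2 ratios of 0.17 and 0.02 in the 2 knockout comparisons. EGLN3 (PHD3), the form most induced by hypoxia, had 869, 1031, 1034 and 930, with 0.10 and −0.10. KDM3A, a histone H3K9 demethylase under HIF control, had 1851, 1972, 2392 and 1999, with −0.00 and 0.06. The mitophagy receptors BNIP3 and BNIP3L, both HIF targets, had log2 ratios of −0.05 and 0.14 against gRNA2 and of 0.04 and 0.02 against CTL+dox.

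Of the remaining HIF targets, NDRG1, a stress-induced growth regulator, had 7373 (CTL), 8103 (CTL+dox), 12205 (gRNA2) and 8885 (gRNA2+dox) reads. Like CA9 and LOX it was highest in gRNA2, at 0.38 (0.33 to 0.42) against CTL, and its knockout ratios were −0.20 against gRNA2 and 0.18 against CTL+dox. BHLHE40 (DEC1), a transcriptional repressor, had 5968, 5712, 8742 and 6780, with −0.11 and 0.29 (0.24 to 0.34) in the same comparisons. ERO1A, an oxidase of the endoplasmic reticulum, was at −0.11 and −0.03, and MXI1, a MYC antagonist, at 0.01 and −0.07. None of these 4 was called.

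ANKRD37, a small ankyrin-repeat protein often listed in hypoxia signatures, had 120, 134, 117 and 109 reads in CTL, CTL+dox, gRNA2 and gRNA2+dox. Its log2 ratios were 0.15 and −0.25 in the knockout comparisons and −0.39 (−0.77 to −0.01) in gRNA2 against CTL. The 2 strand-specific counts of this gene sum to 2.16 times the count used, and those of BHLHE40 to 1.12 times. The count used leaves out reads that overlap genes on both strands, so the values of both genes are uncertain.

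The factors upstream were measured in the same libraries. HIF1A had 4956 (CTL), 5836 (CTL+dox), 7862 (gRNA2) and 6584 (gRNA2+dox) reads, with log2 ratios of −0.00 in gRNA2+dox against gRNA2 and 0.22 against CTL+dox. EPAS1 had 5439, 5904, 7713 and 6806, with 0.07 and 0.25. Neither was called, and HIF activity is set mainly through protein stability, which RNA counts do not measure. Of the 9 tested genes of the HIF machinery, 0 were called against gRNA2, where 2.08% of all genes were called higher and 3.06% lower. Against CTL+dox 2 were called higher, where 3.38% of all genes were, namely the coactivators CREBBP at 0.54 (0.43 to 0.64) and EP300 at 0.53 (0.47 to 0.59). In the pools without doxycycline (gRNA2 against CTL), CREBBP was already at 0.33, EP300 at 0.32, HIF1A at 0.31 and EPAS1 at 0.15, and within the gRNA2 pool the log2 ratios of CREBBP and EP300 with doxycycline were 0.07 and 0.03.

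Further lists were counted in the same way. The 13 genes of pyruvate oxidation, the 8 of the pentose phosphate pathway, the 11 tested isozymes outside the list and the 3 tested partners of lactate and pH control gave no call in either knockout comparison. Their median log2 ratios lay between −0.05 and 0.00 against gRNA2 and between −0.11 and 0.04 against CTL+dox. These lists were chosen with earlier results of the data known, so their counts are a description.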

How the data were processed

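Per the study's methods, reads of 4 mammosphere libraries were trimmed with fastp and counted per gene with the gene quantification mode of STAR; the submitters' processing notes name hg38, and the annotation release and STAR version are not given in the sources used here. The authors deposited raw counts, unstranded and per strand. The unstranded counts were used, since each strand held about equal reads (49.0% to 49.1% on the first), and 4 leading lines of unassigned reads (19.0% to 20.3% of reads) were left out. Libraries were scaled by TMM (edgeR 4.0.16, R 4.3.3; factors 0.985 to 1.02), and log2 ratios used a prior count of 0.5. Genes needed 10 counts in 1 library. The quasi-likelihood test needs replicates and GFOLD, which the study used, was not run here. Intervals are exact Clopper-Pearson 95% intervals, with normal ones for differences of ratios, and 3 counts equal 0.115 to 0.147 CPM. The code was tested on simulated data. TPM used exon lengths of GENCODE 44 on GRCh37, as widths only, which covered 91.5% of genes and all 42 members, and promoters came from RefSeq on GRCh38.p14. The members and lists were chosen with earlier results of these data known. The text names all members, TCOF1, HIF1A, EPAS1 and the genes of the other lists that were called in a knockout comparison, except that some items are not reported here. The scaling (DESeq2 1.42.0 size factors or total counts), the count filter, the prior count and the strand column were each varied in turn.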

Additional observations from a re-analysis of the deposited data

Results flagged for a closer look

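For 7 of the 42 members the doxycycline ratio had opposite signs in the 2 pools, with both counting intervals off 0. None of these differences could be tested across replicates. The count was made with the TMM scaling only, and the interval of LDHA in the gRNA2 pool ended at −0.01. The difference (gRNA2 pool minus CTL pool, log2) was −1.24 for LDHB, −0.40 for PGAM1, −0.30 for SLC16A1, −0.27 for GAPDH, −0.19 for GPI, −0.12 for LDHA and −0.10 for PKM. In every one of the 7 the ratio was below 0 in the gRNA2 pool and above 0 in the CTL pool. Only LDHB passed the size needed for a call, and the others were deep genes in which counting error is small, so that their intervals leave out 0 at small sizes. Among all 15204 genes tested, 3.58% had opposite signs in either direction. Of these, 368 were below 0 in the gRNA2 pool and above 0 in the CTL pool, as the 7 members were, and 176 were the reverse. That share was not matched for read depth.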

How the results depend on the processing

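No paired analysis was possible because a single library stood for every condition. A comparison of 1 library with 1 also leaves none to drop. LDHB kept its calls under all 6 alternatives, with log2 ratios of −2.35 to −2.30 against CTL+dox, −0.93 to −0.91 against gRNA2 and −1.14 to −1.08 in gRNA2 against CTL. For LDHB the count filters could not alter a ratio, and the 2 strand-specific counts sum to the count used. Only the scaling and the prior count could move its ratios. No called value reversed. The number of members called in gRNA2 against CTL was 1 in place of 2 with DESeq2 size factors and with total counts only, where CA9 was at 0.49 and 0.46. With at least 50 counts in 1 library, which left 38 members, it was 0 in place of 1 in CTL+dox against CTL and 1 in place of 4 for the difference of the doxycycline ratios. A prior count of 5 gave 2 in place of 4 for that difference, without SLC2A3 (−1.40) and ANGPTL4 (−1.23). Against CTL+dox, ALDOC (1.76) was called with DESeq2 size factors, and PFKM (−0.39) was not with summed strand counts. Low depth limits SLC2A3, ALDOC, CA12 and ANGPTL4.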

Other observations

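The neighbours of LDHB were looked at after its values were seen. LDHB lies at chr12:21635342-21657842 on GRCh38.p14. The 10 other tested genes from PLEKHA5 to BCAT1 lie in a wide window of 5819608 bases. Their median log2 ratios were −0.02 (gRNA2+dox to gRNA2), −0.16 (gRNA2+dox to CTL+dox), 0.14 (CTL+dox to CTL) and −0.06 (gRNA2 to CTL). The nearest, GOLT1B and CMAS, were at 0.03 and −0.26 against CTL+dox, and neither was called. PLEKHA5, at the edge of the window, had 44 (CTL), 54 (CTL+dox), 26 (gRNA2) and 6 (gRNA2+dox) reads. Its log2 ratios were −1.79 (gRNA2+dox to gRNA2), −3.03 (gRNA2+dox to CTL+dox) and −1.09 (gRNA2 to CTL), each of them called lower. ST8SIA1 was called lower against CTL+dox, at −0.51. Of the 10 genes, 1 was called lower against gRNA2, where 3.06% of all genes tested were. Against CTL+dox 2 were (background 5.04%), and in gRNA2 against CTL 1 was (background 2.91%). In CTL+dox against CTL 0 were called.

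MIF, a cytokine listed among further HIF targets, had 0 unstranded counts in all 4 libraries, whereas its 2 strand-specific counts summed to 5236 (CTL), 6268 (CTL+dox), 6992 (gRNA2) and 5994 (gRNA2+dox). It was therefore outside the genes tested, and its unstranded value of 0 is not a measure of its expression.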
